A study of Rattus norvegicus with 8 samples.

Results

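The genes examined here control the decision of a cell to leave the G1 phase and copy its DNA. They are 9 listed genes: the CDK inhibitor genes Cdkn1a, Cdkn1b and Cdkn2c, the D-type cyclin genes Ccnd1, Ccnd2 and Ccnd3, the kinase genes Cdk4 and Cdk6, and the transcription factor gene Myc. All 9 were found by symbol among the 17337 genes of the deposited count table, and all 9 were among the 10472 genes that passed the filter on low counts. The tissue was the periodontal ligament (PDL), the connective tissue between tooth root and bone, cut by laser micro-dissection at the cervical level in rats (Rattus norvegicus). The 4 libraries of the later age came from animals of postnatal day 28 (P28) and the 4 of the earlier age from animals of postnatal day 18 (P18). The teeth come into occlusal contact between these ages. The labels name no strain, and give normal growth and no treatment for every animal.

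D-type cyclins bind CDK4 and CDK6, and the active kinases phosphorylate the retinoblastoma protein, which then releases E2F transcription factors and lets the genes of DNA replication be read. The Cip/Kip inhibitors p21 (Cdkn1a) and p27 (Cdkn1b) bind cyclin-CDK complexes, and the Ink4 inhibitor p18 (Cdkn2c) binds the kinases CDK4 and CDK6 themselves. Myc promotes growth and G1 progression and binds E-boxes. PDL fibroblasts are a population that divides during root formation and renews through adult life.

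The promoter of Cdk4 is shown because Cdk4 is a textbook target of Myc, which is also measured here. The sequence is from RefSeq (build GRCr8) and covers 250 bases before to 50 after the start site that table uses, 5′ to 3′ on the strand of the gene (chr7:64771203-64771502, plus strand). Capitals mark the E-box CACGTG.
Cdk4: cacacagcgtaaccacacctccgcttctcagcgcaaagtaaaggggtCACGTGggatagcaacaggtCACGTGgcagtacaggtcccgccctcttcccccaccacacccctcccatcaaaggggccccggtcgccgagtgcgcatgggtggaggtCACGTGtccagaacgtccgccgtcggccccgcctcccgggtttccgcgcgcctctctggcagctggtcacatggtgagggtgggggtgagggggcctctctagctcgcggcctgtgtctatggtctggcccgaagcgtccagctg

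The table held a promoter for 5 of the 9 genes: Cdkn1a, Cdkn1b, Cdkn2c, Ccnd3 and Cdk4. CACGTG reads the same on both strands. It stood 3 times in the Cdk4 window, starting at -203, -183 and -95 from the start site, and in none of the other 4 windows. Of all 33469 promoter windows of this length, 2148 (6.42%) held it at least once and 19 (0.0568%) at least 3 times. A match describes the letters of the window and shows no binding.

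Total counts per library ran from 5252693 to 26645656, and the counts behind the values of the 9 genes from 62 (Cdk6, P28 replicate 3) to 17819 (Cdk4, P18 replicate 2). Levels are CPM (counts relative to the TMM-scaled library total), which corrects for library size and composition but not for gene length, so levels are compared between ages and not between genes. P28 replicate 4 had the lowest total and the lowest correlations with the libraries of its own age (0.750 to 0.766 across genes). Of 57 marker genes of ligament and other cell types, 47 had counts in all 8 libraries. The 7 ligament fibroblast markers summed to 128623 to 177163 CPM at P28 and 82501 to 126859 CPM at P18, without overlap between ages. Col1a1, Col3a1 and Postn (periostin) made up most of that sum, and each of them overlapped between ages, as did Scx. Of the 7 markers, Fmod was higher at P28 without overlap, at 281 to 407 CPM at P28 and 13.3 to 103 CPM at P18. Tnmd (tenomodulin) lay the other way, at 51.1 to 133 CPM at P28 and 479 to 734 CPM at P18. Postn was present in every library, and Aspn was at 0 in 5 libraries and at most 0.0904 CPM in the other 3. Sums of the remaining marker lists overlapped between ages. The 5 osteoblast markers summed to 8351, 8739, 4862 and 10091 CPM in P28 replicates 1 to 4 and to 3658 to 5676 CPM at P18, so that 3 of the 4 P28 libraries lay above every P18 library. Of these 5, Bglap (osteocalcin) and Ibsp (bone sialoprotein) were higher at P28 without overlap, as Cdkn1a and Ccnd1 were. Bglap lay at 723 to 2423 CPM at P28 and 203 to 528 CPM at P18. Ibsp lay at 2726 to 5891 CPM at P28 and 1250 to 2715 CPM at P18, a narrow separation. Dmp1, Sp7 and Alpl overlapped. Dmp1 lay at 67.5 to 206 CPM at P28 and 17.2 to 88.8 CPM at P18. Sp7 lay at 34.6 to 110 CPM at P28 and 69.1 to 95.6 CPM at P18. Alpl leaned the other way, at 1207 to 2142 CPM at P28 and 1840 to 2441 CPM at P18. Such a separation was not particular to osteoblast genes. Acp5 of the osteoclast list was higher at P28 without overlap, at 147 to 2632 CPM against 57.5 to 131 CPM at P18. So were Pecam1 of the endothelial list (192 to 310 against 117 to 145 CPM) and Cspg4 of the mural list (48.3 to 143 against 25.1 to 47.5 CPM). Neutrophil markers ranged from 24.97 to 272 CPM at P28 and from 36.1 to 940.0 CPM at P18, erythroid markers from 590 to 4015 CPM at P28 and from 2373 to 7979 CPM at P18, and osteoclast markers from 1024 to 7813 CPM at P28 and from 1451 to 1707 CPM at P18. Epithelial markers ranged from 59.3 to 3700 CPM at P28 (highest in replicate 2) and from 21.9 to 532 CPM at P18. Enamel organ markers ranged from 5.62 to 638 CPM at P28 and from 15.1 to 4790 CPM at P18 (highest in replicate 1). Ambn and Amtn of that list were lower at P28 without overlap. Ambn lay at 1.06 to 4.58 CPM at P28 and 9.72 to 2329 CPM at P18. Amelx, Enam and Odam overlapped. The part of these lists in the results below was not tested. In bulk tissue, fewer cells of a type and less RNA per cell cannot be told apart.

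Cdkn1a, the p21 gene, was the only member that passed the edgeR test when every library was kept. Of the 9 genes, 1 was called higher and 0 lower (edgeR quasi-likelihood test, adjusted p under 0.05), where 0.516% of all tested genes were called higher and 0.42% lower, 0.936% in all. At an unadjusted p under 0.05 the count was 4 of 9 (Cdkn1a, Myc, Ccnd1 and Cdk4), against 14.5% of all genes. For Cdkn1a and Ccnd1 all P28 libraries lay above all P18 libraries, and for Myc all lay below. Over all genes, 4.91% were higher without overlap and 5.54% lower, 10.4% in all. The median log2 fold change of the 9 was 0.10, against 0.01 for all genes tested, with 5 of the 9 above 0 and 4 below.

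**Figure D1:**
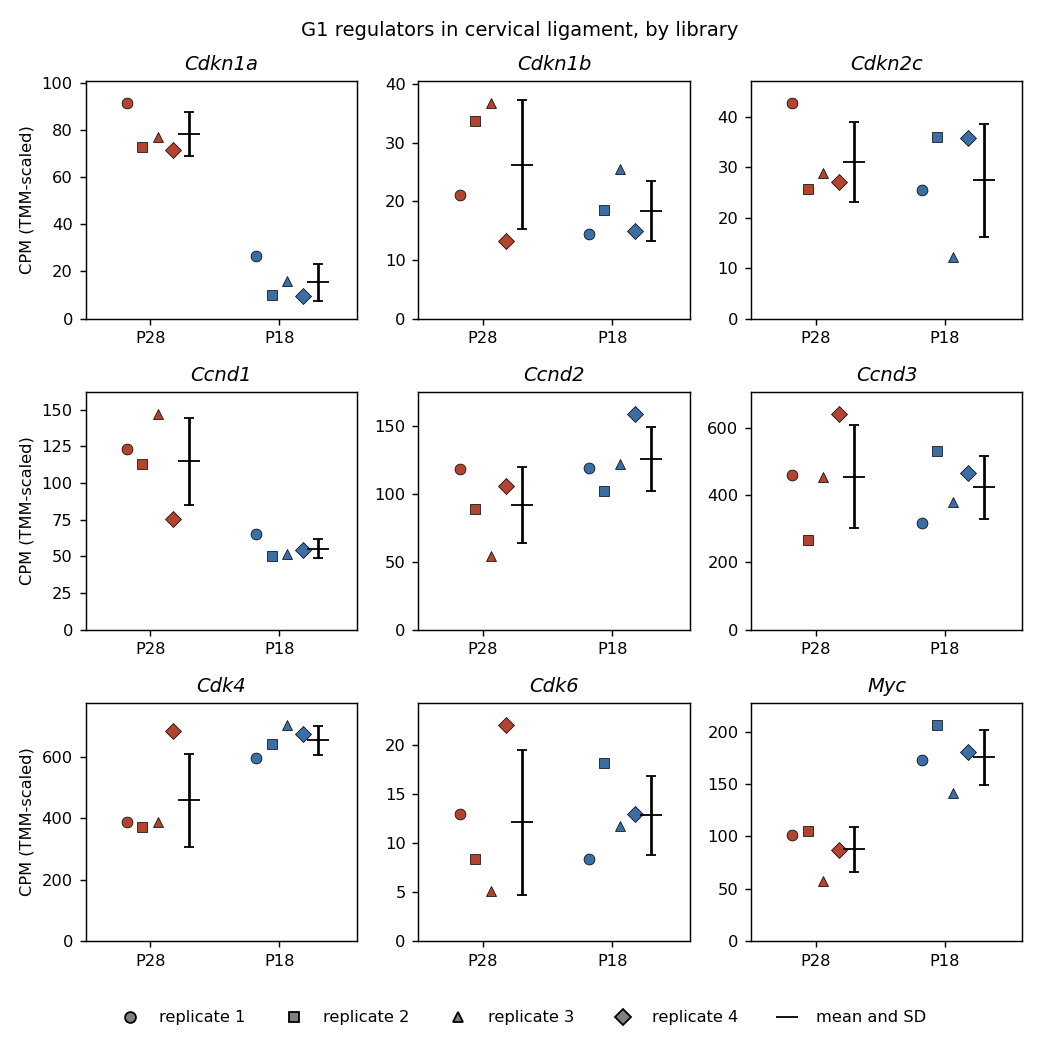
CPM of each of the 9 genes in every library, with P28 (red) left of P18 (blue); symbols are replicates 1 to 4, and the bar is the mean with its SD (n = 4 per age). Points of the ages are separate for Cdkn1a, Ccnd1 and Myc, and the P28 replicate 4 diamond of Cdk4 lies among the P18 points.

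Among the inhibitors, Cdkn1a had 91.5, 72.7, 77.1 and 71.4 CPM in P28 replicates 1 to 4, against 26.5, 9.87, 15.8 and 9.62 CPM in P18 replicates 1 to 4. The 4 P28 libraries lay close together, with an SD of log2 CPM of 0.16, whereas the P18 libraries were spread over an SD of 0.68 with replicate 1 the highest. The medians of that SD over all tested genes were 0.69 at P28 and 0.53 at P18. The mean was 78.2 ± 9.22 CPM at P28 and 15.4 ± 7.89 CPM at P18 (SD, n = 4 each), which is 2.34 ± 0.38 (SE) on the log2 scale, or 5.08-fold (edgeR adjusted p = 0.0204). The call ended without P18 replicate 2 (adjusted p = 0.0684), P18 replicate 3 (0.0801), P18 replicate 4 (0.0671), P28 replicate 1 (0.0857) or P28 replicate 3 (0.0570) in the same edgeR test. Those 5 fits called few genes of any kind, 0.0375%, 0.113%, 0.132%, 0.0751% and 0.167% of all genes higher and 0.0469%, 0.103%, 0.0941%, 0.0751% and 0.121% lower, in that order. The call held without P18 replicate 1 (0.278% of all genes higher, 0.241% lower), P28 replicate 2 (0.758% and 0.514%) or P28 replicate 4 (1.02% and 0.97%). The log2 fold change stayed between 2.17 and 2.73 over these 8 fits. With the replicate number as a block, the log2 fold change was 2.46 (edgeR adjusted p = 0.0368). That fit called 0.153% of all genes higher and 0.0955% lower. Replicate numbers did not pair the libraries, so this block is no test of a paired design.

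The other Cip/Kip gene of the list, Cdkn1b, had 21.1, 33.7, 36.9 and 13.3 CPM in P28 replicates 1 to 4 and 14.4, 18.6, 25.6 and 15.0 CPM in P18 replicates 1 to 4. The ages overlapped, and P28 replicate 4 held the lowest value of all 8 libraries. Its log2 fold change was 0.52 ± 0.48, with a 95% interval of -0.53 to 1.56 (edgeR adjusted p = 0.680). The Ink4 gene Cdkn2c had 42.8, 25.7, 28.9 and 27.05 CPM in P28 replicates 1 to 4 and 25.5, 36.0, 12.2 and 35.9 CPM in P18 replicates 1 to 4. The ages overlapped here too, and P18 replicate 3 held the lowest value. Its log2 fold change was 0.18 ± 0.44, with a 95% interval of -0.77 to 1.13 (edgeR adjusted p = 0.894), and its sign turned without P18 replicate 3 (-0.07) or P28 replicate 1 (-0.01). Both intervals include a change of 1 log2 unit upwards.

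Further CDK inhibitor genes were examined as a list of 4, of which 3 were in the table and 2 were tested, with 0 called by edgeR, 0 at an unadjusted p under 0.05 and 0 by the DESeq2 Wald test or voom. Cdkn1c, the p57 gene of the Cip/Kip class, lay at 232 ± 112 CPM at P28 and 332 ± 66.5 CPM at P18 (log2 fold change -0.51 ± 0.31, edgeR adjusted p = 0.494). Cdkn2b, the p15 gene of the Ink4 class, lay at 4.84 ± 3.41 CPM at P28 and 5.47 ± 2.10 CPM at P18 (SD, n = 4 each). Cdkn2a, the Ink4a/Arf locus gene, was too low to test. It had 0 counts in all 4 P28 libraries, where 0 counts allow up to 0.176 to 0.624 CPM, and 0, 0, 1.28 and 0.713 CPM in P18 replicates 1 to 4.

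None of the 3 D-type cyclin genes passed the test over all genes. Ccnd1, which is induced by growth factor and adhesion signals, had 123, 113, 147 and 75.5 CPM in P28 replicates 1 to 4, against 65.1, 50.3, 51.4 and 54.5 CPM in P18 replicates 1 to 4. All 4 P28 libraries exceeded every P18 library, P28 replicate 4 by the smallest margin. The mean was 115 ± 29.8 CPM at P28 and 55.3 ± 6.75 CPM at P18, a log2 fold change of 1.05 ± 0.25 with a 95% interval of 0.50 to 1.6 (edgeR adjusted p = 0.0773). Ccnd1 therefore missed the threshold over all genes. It passed without P28 replicate 4 (1.21 ± 0.22, edgeR adjusted p = 0.0260), a fit in which 1.02% of all genes were called higher and 0.97% lower.

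Ccnd2 had 118, 89.2, 54.4 and 106 CPM in P28 replicates 1 to 4, against 119, 103, 122 and 159 CPM in P18 replicates 1 to 4. The ages overlapped, with P28 replicate 3 the lowest and P18 replicate 4 the highest library. The log2 fold change was -0.45 ± 0.27, with a 95% interval of -1.03 to 0.13 (edgeR adjusted p = 0.478). Ccnd3 had 460, 267, 453 and 642 CPM in P28 replicates 1 to 4 and 317, 531, 380 and 467 CPM in P18 replicates 1 to 4, and the P28 libraries held both its lowest and its highest value. The log2 fold change of Ccnd3 was 0.10 ± 0.26, with a 95% interval of -0.46 to 0.67 (edgeR adjusted p = 0.899). Its sign turned without P28 replicate 4 (-0.11), without P18 replicate 1 (-0.01) and with voom (-0.06).

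Count ratios within a library need no scaling between libraries, and a change in a ratio does not depend on gene length. The Ccnd1 to Ccnd2 ratio was 1.04, 1.26, 2.70 and 0.711 in P28 replicates 1 to 4, against 0.545, 0.490, 0.421 and 0.343 in P18 replicates 1 to 4. Every P28 ratio was above every P18 ratio, and the mean log2 ratio differed by 1.51, or 2.85-fold. The exact permutation test (2-sided) gave p = 0.0286, the smallest value that 4 against 4 libraries allow, and 0.0857 after adjustment over the 6 ratios computed. Leaving out 1 library, the difference was 1.14 to 1.79 on the log2 scale.

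The Cdkn1a to Cdkn1b ratio was 4.32, 2.15, 2.09 and 5.33 in P28 replicates 1 to 4, against 1.84, 0.532, 0.615 and 0.643 in P18 replicates 1 to 4. These did not overlap either, with a difference of 2.02 on the log2 scale (exact permutation p = 0.0286, adjusted 0.0857). The other 4 ratios overlapped between ages. Ccnd1 to Ccnd3 differed by 0.95 on the log2 scale (exact permutation p = 0.0857, adjusted 0.171), Ccnd2 to Ccnd3 by -0.56 (0.2, adjusted 0.3), Cdk4 to Cdk6 by -0.33 (0.4, adjusted 0.480) and Cdkn1b to Cdkn2c by 0.17 (0.886, adjusted 0.886). At the adjusted level 0 of the 6 ratios passed 0.05. The separated ratios could not pass whatever the size of their change, because 0.0286 is the smallest exact permutation p and too few of the 6 reached it.

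**Figure D2:**
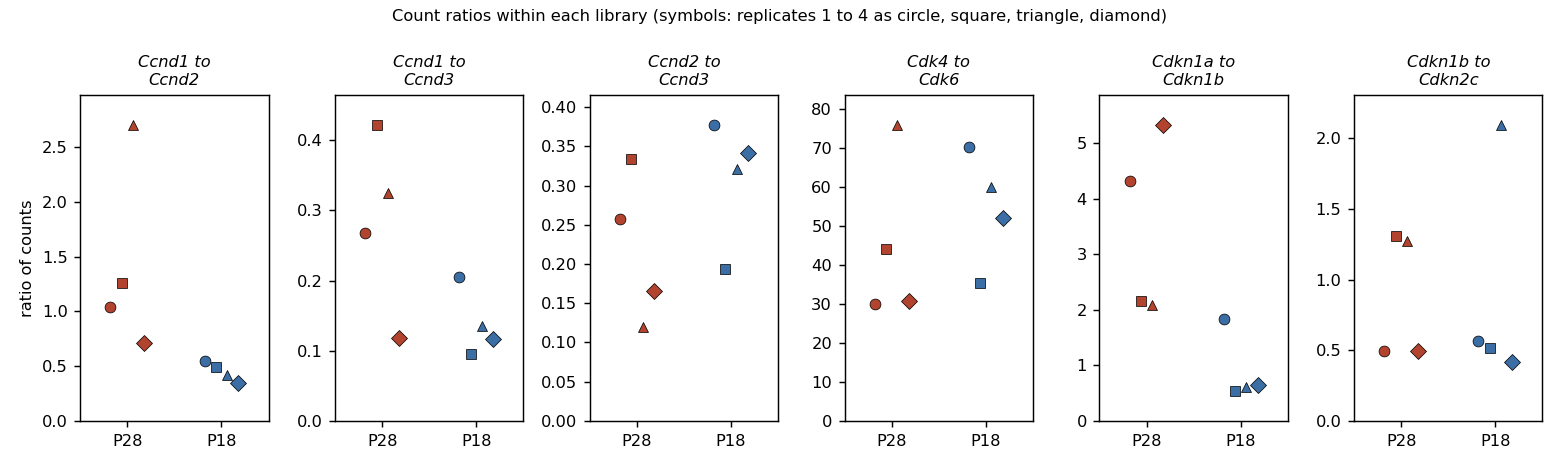
Ratio of the counts of 2 genes within each library for the 6 pairs, with P28 (red) left of P18 (blue) and a symbol per replicate. The ages are separate for Ccnd1 to Ccnd2 and for Cdkn1a to Cdkn1b, and overlap in the other 4 panels.

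Of the kinase genes, Cdk4 had 388, 372, 387 and 684 CPM in P28 replicates 1 to 4, against 595, 642, 704 and 676 CPM in P18 replicates 1 to 4. P28 replicates 1 to 3 lay below all P18 libraries and close to each other, and P28 replicate 4 lay within the P18 range. The mean was 458 ± 151 CPM at P28 and 654 ± 47.0 CPM at P18, or -0.52 ± 0.22 on the log2 scale (edgeR adjusted p = 0.301). Without P28 replicate 4 it was -0.77 ± 0.16 and passed (edgeR adjusted p = 0.0384), in a fit that called 0.97% of all genes lower, against 0.42% with every library. In RefSeq, Cdk4 overlaps Tspan31, a tetraspanin gene, and the strand setting of the counting is not given in the sources used here, so reads in the overlap cannot be assigned with certainty. Tspan31 lay at 196 ± 45.3 CPM at P28 and 208 ± 20.5 CPM at P18 (log2 fold change -0.09 ± 0.20).

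Cdk6, which binds the same cyclins, had 12.9, 8.36, 5.06 and 22.1 CPM in P28 replicates 1 to 4 and 8.41, 18.2, 11.7 and 12.98 CPM in P18 replicates 1 to 4. The P28 libraries held both the lowest and the highest value. The log2 fold change was -0.09 ± 0.67, with a 95% interval of -1.55 to 1.38 (edgeR adjusted p = 0.971), so a change of 1 log2 unit in either direction was within the error. Its sign turned without P18 replicate 2 (0.12), P28 replicate 2 (0.06) or P28 replicate 3 (0.17).

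Myc had 102, 105, 57.6 and 87.0 CPM in P28 replicates 1 to 4, against 173, 207, 142 and 180 CPM in P18 replicates 1 to 4. All P28 libraries lay below all P18 libraries, with replicate 3 the lowest of each age. The mean was 87.7 ± 21.6 CPM at P28 and 176 ± 26.6 CPM at P18, or -1.0 ± 0.24 on the log2 scale with a 95% interval of -1.51 to -0.49. It missed the threshold over all genes (edgeR adjusted p = 0.0737), and in the fits that left out 1 library the log2 fold change stayed between -1.10 and -0.84 without passing in any of the 8 (edgeR adjusted p = 0.0622 to 0.220). Myc and Ccnd1 each passed in the DESeq2 Wald test (adjusted p = 0.00786 for Myc and 0.00835 for Ccnd1) and in voom with quality weights (limma; 0.0438 and 0.0243). Those tests called 2.84% and 1.67% of all genes higher, and 2.51% and 1.26% lower.

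P28 replicate 4 was the highest P28 library for Ccnd3, Cdk4 and Cdk6 and the lowest for Cdkn1a, Cdkn1b and Ccnd1, which makes it an extreme of its age for 6 of the 9 genes. P18 replicates 1 and 2 were also extremes of their age for 6 genes each, and P28 replicates 1, 2 and 3 for 3, 4 and 5. Without P28 replicate 4, Cdkn1a and Ccnd1 were called higher and Cdk4 lower. That fit called 1.02% of all genes higher and 0.97% lower, against 0.516% and 0.42% with all 8 libraries. Likeness of 2 genes was taken as the root mean square difference of their log2 CPM over the 8 libraries, each gene centred on its own mean. Of the 9 genes, Ccnd2 and Cdk4 were the most alike pair, at 0.36, and Cdkn1a and Myc the least alike, at 1.82.

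**Figure D3:**
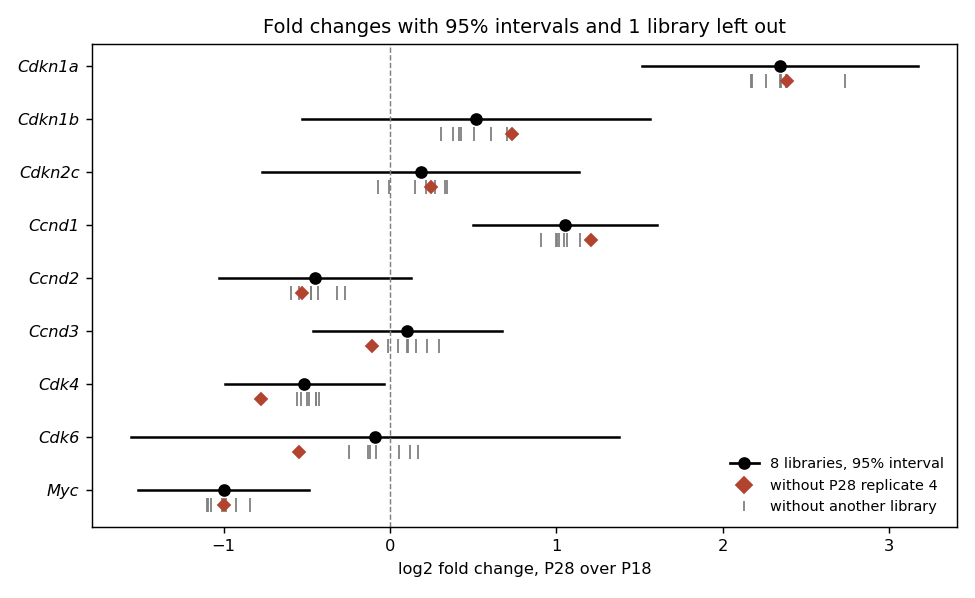
Log2 fold change (P28 over P18) of each of the 9 genes with its 95% interval (black), the value without P28 replicate 4 (red diamond) and the values without each other library (grey ticks). The intervals of Cdkn1a and Ccnd1 lie above 0 and those of Myc and Cdk4 below 0; leaving out P28 replicate 4 moves Cdk4 to -0.77 and Ccnd3 to -0.11.

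Among 7817 other genes with a mean log2 CPM of at least 3, the gene most like Cdkn1a was Klf4, a zinc-finger transcription factor known to act on the Cdkn1a promoter, at a root mean square difference of 0.25 over 8 libraries. Klf4 had 108, 119, 108 and 94.5 CPM in P28 replicates 1 to 4, against 24.0, 14.2, 17.1 and 10.7 CPM in P18 replicates 1 to 4. In both genes P18 replicate 1 was the highest and P18 replicate 4 the lowest library of that age, and P28 replicate 4 the lowest of the later age, whereas the highest P28 library was replicate 1 for Cdkn1a and replicate 2 for Klf4. Klf4 was picked by its likeness over these same 8 libraries, so a shared order of libraries and a shared age difference come with the choice. A link between Klf4 and Cdkn1a was not tested. The next genes were Unc5c, a netrin receptor (0.49), Fxyd2, a regulator of the sodium pump (0.50), and Syde2 (0.52). Unc5c averaged 105 CPM at P28 and 28.5 CPM at P18, and Fxyd2 42.1 CPM at P28 and 6.16 CPM at P18.

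For Ccnd1 the most alike genes were Epha4, an ephrin receptor (0.09), Cox7b, a subunit of cytochrome c oxidase (0.12), Vim, the intermediate filament vimentin of mesenchymal cells (0.13), and Uqcr11, a subunit of respiratory complex III (0.13). Epha4 averaged 129 CPM at P28 and 64.1 CPM at P18, and Vim 3790 CPM at P28 and 2038 CPM at P18. For Myc they were Eef1e1, a component of the multi-tRNA synthetase complex (0.16), Slmo2 (0.16), Zfp422 (0.18) and Snx12, a sorting nexin (0.18). Eef1e1 averaged 30.7 CPM at P28 and 63.7 CPM at P18. The age differences of all genes picked by likeness come with that choice.

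Other genes of the pathway were read from lists, and each count of called genes below is of genes passing the edgeR test over all genes. That test called 0.516% of all genes higher and 0.42% lower. Of 13 tested transcription factors known to act on Cdkn1a or Cdkn1b, 1 was called higher (Klf4) and 0 lower, with a median log2 fold change of 0.44 against 0.01 for all genes. Klf4 rose 2.70 ± 0.31 on the log2 scale (edgeR adjusted p = 0.00446) and kept its call whichever of the 8 libraries was omitted. The FOXO factors, which activate Cdkn1b when growth factor signals are low, did not pass. Foxo1 lay at 14.2 ± 18.2 CPM at P28 and 14.6 ± 6.75 CPM at P18 (edgeR adjusted p = 0.993). At P18 the counts of Foxo4 were low, at 11 to 52 per library. Foxo4 had 10.3, 6.998, 7.99 and 8.11 CPM in P28 replicates 1 to 4, against 1.45, 0.396, 2.22 and 1.37 CPM in P18 replicates 1 to 4, without overlap (edgeR adjusted p = 0.250; DESeq2 Wald test 0.0481). Foxo3 lay at 32.7 ± 20.3 CPM at P28 and 15.1 ± 5.62 CPM at P18, and Smad2, a mediator of TGF-beta signals, at 30.4 ± 18.6 CPM at P28 and 63.4 ± 15.7 CPM at P18 (edgeR adjusted p = 0.422 and 0.312).

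Downstream of the cyclin D kinases, 0 of 13 Rb family, E2F and DREAM genes and 0 of 9 cyclin E, CDK2 and G1/S entry genes were called by edgeR, the DESeq2 Wald test or voom. At an unadjusted p under 0.05 the counts were 0 and 1, against 14.5% of all genes. The median log2 fold changes were -0.11 and -0.47. In the first list, E2f3 had a log2 fold change of 1.63 ± 1.17, E2f4 one of 0.40 ± 0.26, E2f6 one of -0.80 ± 0.56 and Tfdp1, the partner of the E2Fs, one of -0.48 ± 0.26. In the second list all 9 were below 0. Ccne1 (cyclin E1) had 5.46, 12.7, 12.2 and 17.3 CPM in P28 replicates 1 to 4, against 19.4, 26.7, 18.6 and 22.2 CPM in P18 replicates 1 to 4, without overlap (-0.87 ± 0.54, edgeR adjusted p = 0.506). Ccnh, a subunit of the CDK-activating kinase, also showed no overlap, at 36.9 ± 6.48 CPM at P28 and 63.0 ± 12.9 CPM at P18 (-0.77 ± 0.29, edgeR adjusted p = 0.235). Cdk2 and Cdc6, a loading factor of replication origins, lay at -1.05 ± 0.61 and -2.26 ± 1.18 on the log2 scale.

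Of 22 replication and mitosis genes 0 were called by edgeR and 8 had an unadjusted p under 0.05, against 14.5% of all genes. A log2 fold change below 0 was found for 19, where 5205 of all 10472 genes tested were below 0. The median was -0.60 against 0.01 for all genes. The DESeq2 Wald test called 1 lower and voom 0. That gene was Ccna2 (cyclin A2), which had 15.9, 29.2, 16.7 and 26.0 CPM in P28 replicates 1 to 4, against 35.6, 38.1, 84.6 and 109.8 CPM in P18 replicates 1 to 4 (-1.61 ± 0.43, edgeR adjusted p = 0.103; DESeq2 Wald test 0.0155). The helicase subunit gene Mcm2 lay at 32.7 ± 18.6 CPM at P28 and 92.3 ± 36.8 CPM at P18, and the spindle checkpoint gene Bub1 at 17.9 ± 11.8 CPM at P28 and 48.3 ± 10.2 CPM at P18. Neither pair of ages overlapped (edgeR adjusted p = 0.191 and 0.189). In all, 6 of the 22 were lower without overlap and 1 higher, where 5.54% of all genes were lower and 4.91% higher without overlap. The higher one was Birc5 (survivin, which acts in mitosis), at 36.8 to 50.6 CPM at P28 and 26.8 to 36.6 CPM at P18 (log2 fold change 0.50 ± 0.32, edgeR adjusted p = 0.52). Ccnb1 (cyclin B1) had a log2 fold change of -1.05 ± 0.41. Mki67 and Mcm7 lay near 0, at -0.12 ± 0.37 and -0.06 ± 0.39. Besides Birc5, the genes above 0 were Plk1 (0.38 ± 0.37) and Cdc20 (0.50 ± 0.36), both with overlap.

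Of 24 Myc target genes 0 were called by edgeR and 2 had an unadjusted p under 0.05, against 14.5% of all genes. A log2 fold change below 0 was found for 20, with a median of -0.35. The DESeq2 Wald test called 1 of them lower (Eif4a1) and voom 0. Eif4a1, the translation initiation helicase, had 410, 454, 292 and 335 CPM in P28 replicates 1 to 4, against 536, 560, 585 and 586 CPM in P18 replicates 1 to 4. The ages did not overlap (-0.60 ± 0.18, edgeR adjusted p = 0.142; DESeq2 Wald test 0.0301). Eif4e, the cap-binding factor, lay at 63.4 ± 25.5 CPM at P28 and 102 ± 8.59 CPM at P18 (-0.69 ± 0.30, edgeR adjusted p = 0.309). The nucleotide synthesis genes Cad and Ppat lay at 0.71 ± 0.37 and -1.17 ± 0.62 on the log2 scale. Of 10 tested Myc partners and antagonists 0 were called by edgeR, the DESeq2 Wald test or voom and 0 had an unadjusted p under 0.05. Max, the obligate partner of Myc, had a log2 fold change of -0.74 ± 0.68, and Mxi1, Mlx and Mxd4 had -0.61 ± 0.39, 0.34 ± 0.27 and 0.23 ± 0.19.

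Of 10 tested genes of the ubiquitin ligase list for cyclins, p27 and Myc, 0 were called by edgeR. An unadjusted p under 0.05 was found for 3, against 14.5% of all genes, and 9 were below 0, with a median of -0.35. The list also holds the accessory gene Cks1b and Usp28, which codes for a deubiquitinase and not a ligase. The DESeq2 Wald test called Cul1 lower and voom 0. Cul1, the scaffold of the SCF ligase, had 53.7, 108, 51.0 and 13.9 CPM in P28 replicates 1 to 4, against 103, 165, 244 and 148 CPM in P18 replicates 1 to 4 (-1.54 ± 0.48, edgeR adjusted p = 0.147; DESeq2 Wald test 0.0208). Skp1, its adaptor, lay at 566 ± 93.8 CPM at P28 and 811 ± 77.7 CPM at P18 without overlap (-0.52 ± 0.18, edgeR adjusted p = 0.189). Skp2, the receptor that targets p27, and Rnf123, another ligase for p27, had log2 fold changes of -1.21 ± 0.58 and -1.09 ± 0.43.

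**Figure D4:**
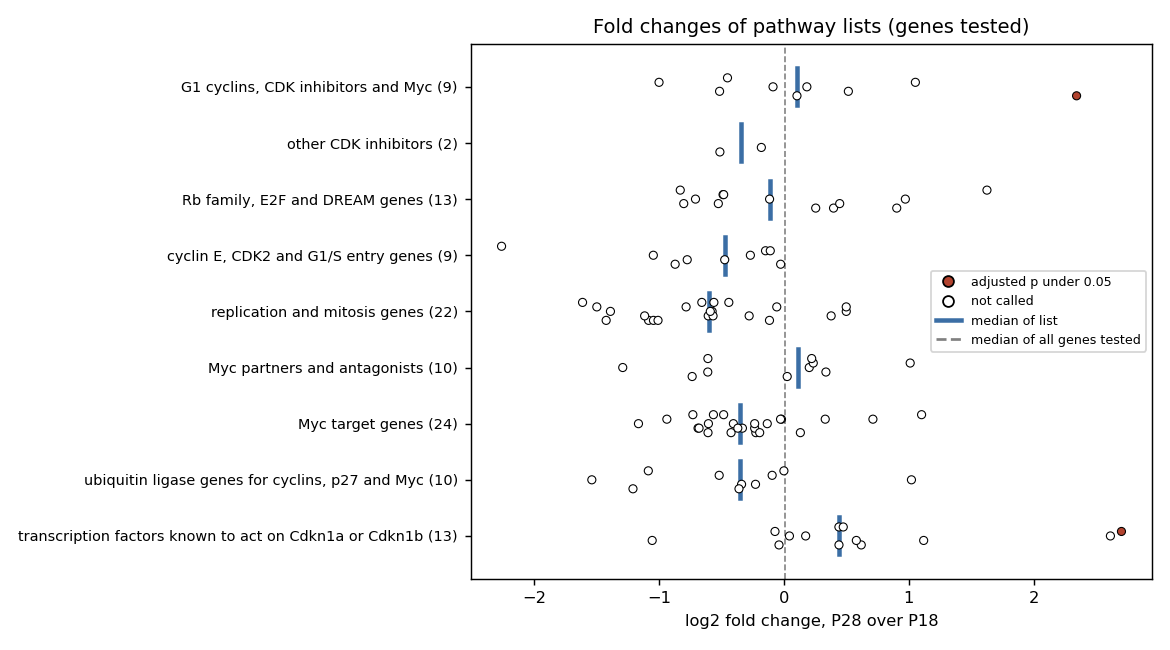
Log2 fold change (P28 over P18) of every tested gene of the 9 listed genes and of each pathway list, with the number tested in parentheses; filled points passed the edgeR test, blue bars are list medians and the dashed line is the median of all genes tested. Cdkn1a and Klf4 are the filled points, and the median of the replication and mitosis list lies at -0.60.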

How the data were processed

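The 8 cervical libraries were grouped by the labelled age. Per the labels, total RNA was taken by laser micro-dissection and libraries were made with a low-input kit; the labels state 4 animals per age, and each library was taken as 1 animal. The authors deposited raw counts per gene symbol. The submitters' processing notes name build rn6 and the tools HTSeq 0.9.1, STAR 2.5.3a and edgeR 3.16.5, without their roles; neither annotation nor strand setting is stated. A further 40 columns of the count table were not used, nor was the authors' normalized table.

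Counts were tested with edgeR 4.0.16 in R 4.3.3 (quasi-likelihood test, 2-sided, TMM scaling, age as the only term, expression filter with a minimum count of 10), with Benjamini-Hochberg adjustment over all 10472 genes tested and a threshold of 0.05. The SE of a log2 fold change is its size divided by the root of F; log2 CPM used a prior count of 2, and ratios 0.5 added to each count. Alternatives were DESeq2 1.42.0 (size factors; Wald test), upper-quartile scaling, voom with quality weights (limma 3.58.1), 2 other filters, a block by replicate number and each library left out. The edgeR, DESeq2, voom and block fits were tested on simulated counts with known changes: none called a changed gene in the wrong direction, and the DESeq2 Wald test alone made more false calls than its threshold allows, so its longer lists are given as an alternative only. Limits at 0 counts (3 counts per library) and 95% intervals are given beside values; limits at 0 cover counting error only, since PCR copies are not independent molecules.

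The 9 genes and all lists were chosen with earlier results of these data known. The named genes are the 9, the 4 with the lowest p of each pathway list, every called list gene, and the 4 most like each of Cdkn1a, Ccnd1 and Myc. Cdkn2a, Birc5, Foxo1, Plk1, Cdc20, Mki67, Mcm7 and the single cell type markers are named outside that rule, after their values were seen. Tspan31 is named as a neighbour of Cdk4. A further listed gene, and the pathway lists that rest on it, are not reported here. List genes under another symbol were matched through RefSeq (GRCr8), in which 14821 table symbols matched a symbol and 2125 a synonym only. Coordinates are on GRCr8 and belong to the promoter windows alone.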

Additional observations from a re-analysis of the deposited data

Results flagged for a closer look

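Cdk4 in P28 replicate 4, at 684 CPM, lay far from the other 3 P28 libraries: its gap to the nearest of them was 0.948 of the range of the 4. Its part in the fold change of Cdk4 is given by the value without it, -0.77 against -0.52 with it. None of the other sets of 4 libraries (18 in all, 9 genes at 2 ages) held such a value, and chance flags about 1 in 20.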

How the results depend on the processing

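Of the 9 genes, Cdkn1a was called in all 7 alternatives that kept every library. Leaving out 1 library, 0 to 2 of the 9 genes were called higher and 0 to 1 lower, 4 to 110 of all genes were called higher and 5 to 105 lower, and 1 and 0 genes of the pathway lists were called higher and lower. The DESeq2 Wald test called 297 of all genes higher and 263 lower, 2 of the 9 higher (Cdkn1a, Ccnd1) and 1 lower (Myc), and 2 pathway genes higher (Klf4, Foxo4) and 3 lower. Voom called 175 of all genes higher and 132 lower, and 2 and 1 of the 9; the cause was not tested. With the replicate block 16 of all genes were called higher and 10 lower; Cdkn1a kept its call (adjusted p = 0.0368) and 0 others of the 9 passed. Replicate numbers did not pair the libraries (correlations of deviations -0.02 to 0.00), so the block says nothing of a weaker effect. Signs turned for members with log2 fold changes near 0: Cdkn2c (-0.071 without P18 replicate 3, -0.0084 without P28 replicate 1; -0.071 to 0.34 over the 8 libraries left out), Ccnd3 (-0.060 with voom, -0.011 without P18 replicate 1, -0.11 without P28 replicate 4; -0.11 to 0.29) and Cdk6 (0.12 without P18 replicate 2, 0.06 without P28 replicate 2, 0.17 without P28 replicate 3; -0.54 to 0.17), as for Cdkn2b (0.02 without P18 replicate 2, 0.18 without P28 replicate 3; -0.63 to 0.18). Of 135 refits of the 9 genes, 116 kept the direction and the side of the threshold. Precision is limited by the spread between the 8 libraries (biological coefficient of variation 0.704; the SE on the log2 scale had a median of 0.49 over genes).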
